A study of Gallus gallus with 106 samples.

Results

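HIF1A, VEGFA and BHLHE40 were followed in chicken satellite cells that differentiated at 1% O2 (hypoxia) or at 20% O2 (normoxia). They were chosen by name, with earlier results of these data known, as the hypoxia-inducible factor subunit and a pair of its classical target genes. They are 3 of the 569 genes on a targeted RNA-seq panel, and all 3 are among the 453 genes abundant enough for testing. HIF1A encodes the oxygen-regulated subunit of hypoxia-inducible factor 1. In well oxygenated cells that protein is hydroxylated by prolyl hydroxylases and degraded, and at low oxygen it accumulates, pairs with ARNT and switches on genes for glycolysis, vessel growth and oxygen delivery, so that its control lies mainly in the protein rather than in its mRNA. VEGFA encodes the vascular endothelial growth factor that muscle cells secrete to attract capillaries, and BHLHE40 encodes a basic helix-loop-helix repressor that is induced by hypoxia in mammals and also acts in the circadian feedback loop.

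Satellite cells are the resident stem cells of muscle, and these were primary cultures from broiler Pectoralis major, the breast muscle, all of wild-type genotype. Groups were hypoxia at 12, 24, 36 and 48 h with 6 libraries each, normoxia at the same 4 times with 6 libraries each, and normoxia at 0 h with 5 libraries, taken just before the cells received differentiation medium. All groups after 0 h were in that medium, all were wild type, and hypoxia had no 0 h group of its own, so changes from 0 h in hypoxia hold both the medium and the oxygen. Each of the 53 libraries is the sum of 2 technical replicates. No label states separate birds or cultures for the libraries, and the p-values therefore cover only the scatter among these samples, part of which may be technical. In such bulk samples fewer cells of a type and less RNA per cell cannot be told apart.

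In the deposited table, in galGal6 coordinates, HIF1A lies on the minus strand of chromosome 5 from 54165598 to 54192262 with 14 exons. VEGFA lies on the minus strand of chromosome 3 from 30775995 to 30796571 with 7 exons, and BHLHE40 on the plus strand of chromosome 12 from 18986975 to 18991321 with 5 exons. Each was measured through 1 transcript, so isoforms of VEGFA were not separated. Levels are normalised read counts, CPM, that is counts scaled to a common library size, scaled by TMM factors. CPM of different genes depend on primer yield, so levels are compared between groups and not between genes.

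The whole panel sets the scale of these results. Library totals ran from 171196 to 1448544 counts, and the lowest count of a member in a library was 352, for BHLHE40. The totals left a gap between 311436 and 516809 counts with 13 libraries below it, equal in number at both oxygen levels at each time after 0 h (replicate 4 at 12 and 36 h, replicates 2 and 6 at 24 and 48 h, and replicate 2 at 0 h). Within groups HIF1A went down and BHLHE40 up with the library total, at Pearson's r of -0.75 and 0.50 with its log2 over 53 libraries, against 0.00 for VEGFA and a median size of 0.31 over all tested genes. The shallowest library was the highest of its group for HIF1A in 6 of 9 groups and the lowest for BHLHE40 in 8 of 9. Hypoxia differences of the 3 genes are therefore also given without the 13 libraries where a call differs, and the part of depth in them was not tested otherwise. Of 9 satellite cell and muscle markers the highest medians were 8285 CPM for PAX7, 5278 CPM for MYF5, 4839 CPM for MYOG, 4274 CPM for DES and 4166 CPM for MYOD1. PAX3 (777 CPM), ITGA7 (410 CPM), MEF2C (325 CPM) and MYF6 (108 CPM) were lower. PECAM1 of endothelium (median 1.89 CPM) and PTPRC of blood cells (0.764 CPM) were near 0. The endothelial markers VWF (125 CPM), ENG (134.04 CPM) and CDH5 (16.3 CPM) were at 0 in no library, and CD14 of blood cells (17.7 CPM) in 2. Of 8 fibroblast and fat cell markers FABP4 (6221 CPM), PDGFRA (4991 CPM), COL3A1 (4881 CPM), COL1A1 (4279 CPM) and ADIPOQ (3751 CPM) were abundant too. DPT (1358 CPM), PLIN1 (15.3 CPM) and COL1A2 (1.79 CPM) were lower. As CPM depend on primer yield, these levels do not give the share of a cell type. A score of 6 co-varying genes (MC5R, SSTR2, HRH2, THRSP, FBP2 and IRS1), the mean of their log2 CPM, left a gap between 7.03 and 7.67 with 17 libraries above it. Those were 1, 1, 1 and 2 of 6 libraries in hypoxia at 12, 24, 36 and 48 h, and 4, 1, 1 and 5 of 6 in normoxia, with 1 of 5 at 0 h. The counts are thus unequal between oxygen levels at 12 and 48 h, and where a hypoxia difference of the 3 genes loses its call without these libraries, the value without them is given as well.

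In brief, BHLHE40 mRNA was higher in hypoxia at all 4 times, by 1.18 to 1.33-fold, VEGFA mRNA was slightly higher on average, by 1.06-fold, and HIF1A mRNA was slightly lower on average, at 0.924 of its normoxic level. Differences are given as log2 values with their standard error (SE), tested with edgeR's quasi-likelihood test over all 453 genes, and called at an adjusted p under 0.05. At 12 h 1 of the 3 genes was called, against 17.9% of all tested genes. At 24 h it was 2 of 3, against 18.5%, at 36 h 2 of 3, against 16.3%, and at 48 h 1 of 3, against 22.3%. For the mean difference over the 4 times all 3 were called, against 36.6% of all genes. With 3 genes, these counts are not distinguished from the background shares, and the results rest on each gene's own values. Several calls depended on the processing. Of 19 alternative settings 7 ended the mean call of VEGFA, 3 that of HIF1A and 0 that of BHLHE40. The call of VEGFA at 24 h was lost under 16 and that of HIF1A at 36 h under 14. Those of BHLHE40 were lost under 7, 0, 2 and 2 at 12, 24, 36 and 48 h.

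**Figure D1:**
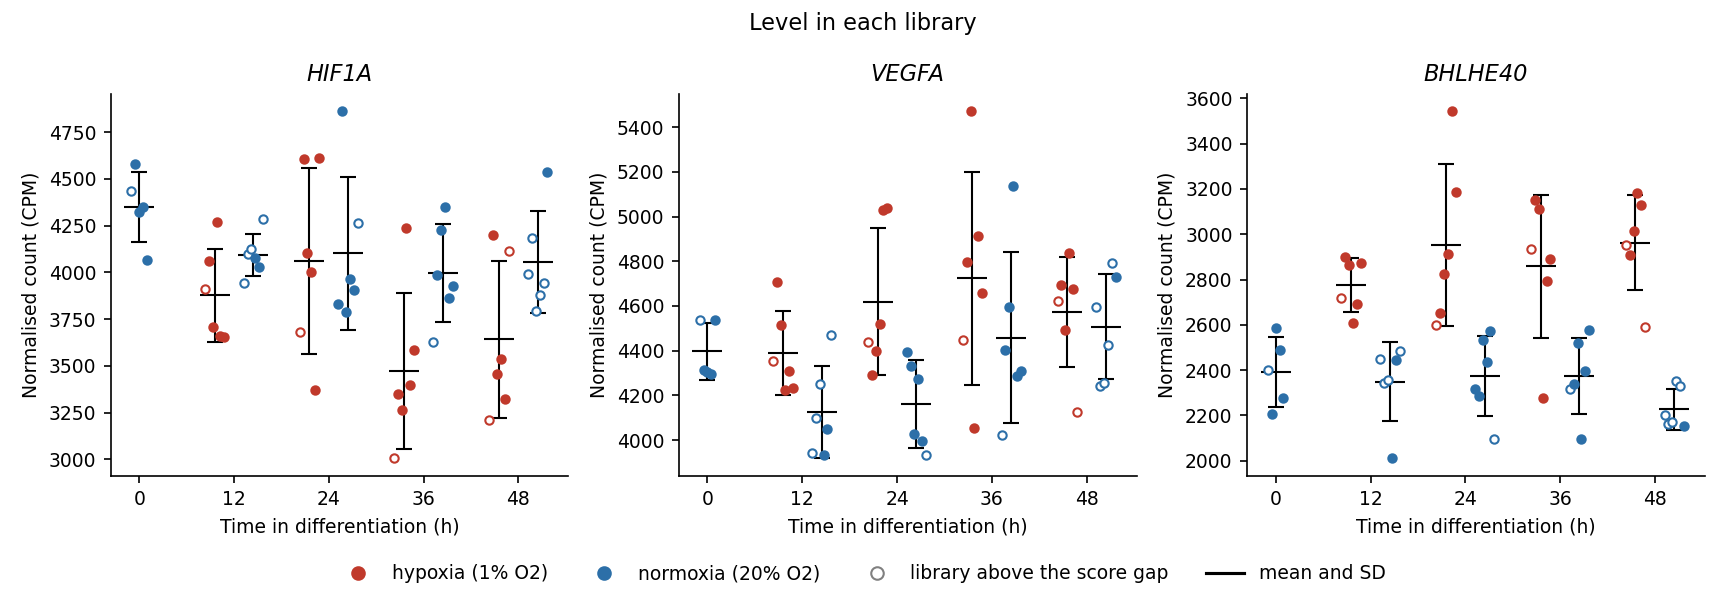
Normalised count (CPM, vertical axis, not starting at 0) of HIF1A, VEGFA and BHLHE40 in each library against time in differentiation (h), with hypoxia left of normoxia; bars are mean and SD over 6 libraries (5 at 0 h), and open points are the 17 libraries above the score gap. BHLHE40 separates by oxygen at 12, 24 and 48 h, while the HIF1A and VEGFA groups overlap at every time.

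HIF1A, the regulator, was set first. At 0 h, in normoxia, its 5 libraries held 4434, 4579, 4324, 4348 and 4067 CPM. At 12 h the lowest, median and highest of the 6 libraries were 3657, 3811 and 4267 CPM in hypoxia, and 3946, 4088 and 4284 CPM in normoxia. Hypoxic libraries reached lower, 4 of 6 lying under the normoxic minimum, but the groups overlapped. At 24 h the values were 3369.9, 4051 and 4609.8 CPM in hypoxia, against 3788, 3935 and 4863 CPM in normoxia, and neither group stood above the other. At 36 h they were 3005, 3374 and 4235 CPM in hypoxia, against 3625, 3957 and 4351 CPM in normoxia. Here 5 of 6 hypoxic libraries lay under the normoxic minimum and 1, replicate 4, the shallowest of its group, lay among the normoxic ones. At 48 h the values were 3212, 3497 and 4202 CPM in hypoxia, against 3793, 3969.6 and 4538 CPM in normoxia, with 4 of 6 hypoxic libraries under the normoxic minimum. Among the libraries above the depth gap the HIF1A groups did not overlap at 36 h (3005 to 3586 CPM in 5 hypoxic libraries, 3625 to 4226 CPM in 5 normoxic ones) or at 48 h (3212 to 3539 CPM in 4 hypoxic libraries, 3793 to 3994 CPM in 4 normoxic ones). That held for 15% of all tested genes at 36 h and for 30.5% at 48 h in those libraries. The hypoxic libraries that had overlapped, replicate 4 at 36 h and replicates 2 and 6 at 48 h, were those left out. The separation of HIF1A at these times was thus fixed by the removal.

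HIF1A averaged 3473 ± 419 CPM in hypoxia and 3997 ± 260.04 CPM in normoxia at 36 h (SD, n = 6 each), and fell by 0.20 on the log2 scale (SE 0.07, edgeR quasi-likelihood test, adjusted p = 0.0414). It did not pass at 12 h (log2 -0.08, 95% interval -0.22 to 0.06, adjusted p = 0.396), at 24 h (-0.02, -0.16 to 0.13, adjusted p = 0.955) or at 48 h (-0.16, -0.30 to -0.01, adjusted p = 0.126). The value at 48 h passed under the replicate block (-0.16) and from technical replicate 2 alone (-0.24). Without the 17 libraries above the score gap it was -0.37 and did not pass. The 1 normoxic library left there is replicate 6, among the 13 of low total (201593 counts), with the highest HIF1A of its group (4538 CPM). Without the 13 libraries of low total HIF1A fell at 12 h (by 0.14, adjusted p = 0.0313), 36 h (by 0.24, adjusted p = 0.00018) and 48 h (by 0.22, adjusted p = 0.00216), and at 24 h it was -0.02 (adjusted p = 0.853). The value at 24 h turned to 0.06 with scaling to reference genes. The mean over the 4 times fell by 0.11 (SE 0.04, interval -0.19 to -0.04, adjusted p = 0.00859). In the fit as reported the highest fold within these intervals was 1.09, the upper bound at 24 h. The intervals do not cover the choice of scaling. With scaling to reference genes and without the 17 libraries above the score gap, the log2 value at 24 h was 0.12. A rise above 1.09-fold is therefore not excluded under other scalings. Of the 4 tested genes of the oxygen-sensing list, HIF1A was the only 1 called at 36 h (list median -0.04, all genes 0.00) and on average. Its coactivator EP300 (mean log2 0.04, adjusted p = 0.50), its inhibitor CITED2 (0.28, adjusted p = 0.256) and the deacetylase SIRT1 (-0.21, adjusted p = 0.20) did not pass. The call at 36 h was lost under 14 of 19 alternative settings, leaving out replicate 1, 2, 3, 5 or 6 among them (adjusted p up to 0.204) and the 17 libraries above the score gap (-0.19, adjusted p = 0.161), and the mean under 3 of 19, with reference-gene scaling among them (-0.11, adjusted p = 0.298).

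HIF1A was also the only member called in a test of any change over time within an oxygen level. In hypoxia any change between 12 and 48 h passed narrowly (adjusted p = 0.0494, against 30.2% of all genes called), though 13 of 19 alternatives ended that call, with leaving out replicate 1, 2, 3 or 6 among them (adjusted p up to 0.231). HIF1A fell by 0.22 on the log2 scale (SE 0.07) between 24 and 36 h of hypoxia, with means of 3473 ± 419 CPM at 36 h and 4061 ± 495 CPM at 24 h (adjusted p = 0.0368, against 9.05% called). In all 12 of 19 alternatives ended that step's call, and leaving out replicate 1, 2, 3 or 6 did so with an adjusted p of up to 0.193. Libraries of low total were unequal between these harvests, with 2 of 6 at 24 h and 1 of 6 at 36 h. They held the highest HIF1A of their groups, at 4604 and 4609.8 CPM at 24 h and 4235 CPM at 36 h. The step's call was kept without the 13 libraries of low total, and the part of depth in it was not tested otherwise. At 48 h of hypoxia it stood at 3641 ± 417 CPM, against 4350.3 ± 187 CPM at 0 h of normoxia (n = 5), and fell by 0.26 (SE 0.07, adjusted p = 0.00325, against 44.2% called). That call was lost under 3 of 19 alternatives, each with scaling to reference genes (-0.26 with that alone, adjusted p = 0.179, and up to 0.314). In normoxia neither any change over the 5 times (adjusted p = 0.586, against 59.8% called) nor 48 h minus 0 h (log2 -0.10, interval -0.25 to 0.05, adjusted p = 0.281, against 40.6% called) passed. Both passed without the 13 libraries of low total (adjusted p = 0.0389 for any change, and -0.14 with adjusted p = 0.0293 for 48 h minus 0 h). The 48 h comparisons of both oxygen levels share the 0 h libraries.

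By level, HIF1A was highest in normoxia at 0 h, and the step from there to the second, normoxia at 12 h, exceeded the larger SD of both groups (0.09 against 0.06 on the log2 scale). By edgeR's test that step did not pass (-0.09, adjusted p = 0.439), and it turned to 0.0099 with scaling to reference genes. The other neighbours in the order did not differ beyond their spread. The order ran on through normoxia at 24 and 48 h, hypoxia at 24 h, normoxia at 36 h and hypoxia at 12, 48 and 36 h. The 3 lowest groups were hypoxic.

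VEGFA, the secreted target, held 4535, 4312, 4305, 4295 and 4535 CPM in the 5 libraries at 0 h. At 12 h the lowest, median and highest values were 4225, 4331 and 4708 CPM in hypoxia, and 3935, 4073 and 4472 CPM in normoxia. All 6 hypoxic libraries lay above the normoxic mean, and 2 above the normoxic maximum. At 24 h they were 4292, 4480.04 and 5038 CPM in hypoxia, against 3935, 4152 and 4395 CPM in normoxia. Here 5 of 6 hypoxic libraries exceeded every normoxic one, the nearest that the VEGFA groups came to separating. Among the libraries above the depth gap they did not overlap there (4397 to 5031 CPM in 4 hypoxic libraries, 3997 to 4395 CPM in 4 normoxic ones), as for 13.2% of tested genes. The nearest values, 4397.2 CPM in hypoxia and 4395.4 CPM in normoxia, all but touched. The hypoxic library that had overlapped, replicate 2, was among those left out. VEGFA itself did not follow the library total within groups (r = 0.00). At 36 h the values were 4055, 4727 and 5473 CPM in hypoxia, against 4021, 4354 and 5138 CPM in normoxia. At 48 h they were 4125, 4649.6 and 4835 CPM in hypoxia, against 4242, 4511 and 4793 CPM in normoxia. At both late times the groups overlapped widely, with 1 hypoxic library above the normoxic maximum at each.

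VEGFA rose at 24 h by log2 0.15 (SE 0.05, edgeR quasi-likelihood test, adjusted p = 0.0459), with 4619.7 ± 329.8 CPM in hypoxia and 4161 ± 197 CPM in normoxia (SD, n = 6 each). This call was lost under 16 of 19 alternatives, and among these were leaving out replicate 1, 3, 5 or 6, with an adjusted p of up to 0.327 (without replicate 5). Without the 17 libraries above the score gap it was 0.15 (adjusted p = 0.206), and without the 13 of low total 0.15 (adjusted p = 0.066). The other times did not pass, at log2 0.09 at 12 h (interval -0.02 to 0.20, adjusted p = 0.216), 0.09 at 36 h (-0.02 to 0.20, adjusted p = 0.329) and 0.02 at 48 h (-0.09 to 0.13, adjusted p = 0.868). The value at 36 h passed under 2 of 19 alternatives, without replicate 4 (0.17, adjusted p = 0.0222) and without the 13 libraries of low total, replicate 4 at 36 h among them (0.17, adjusted p = 0.0133). With scaling to reference genes the value at 12 h turned to -0.03, and with scaling by library totals that at 48 h turned to -0.0036. The upper bounds of the 4 intervals correspond to 1.15, 1.20, 1.15 and 1.09-fold at 12, 24, 36 and 48 h. The mean over the times rose by 0.09 (SE 0.03, interval 0.03 to 0.14, adjusted p = 0.00772), and 7 of 19 alternatives ended that call, among them leaving out replicate 1 or 5 (0.07 and 0.06, adjusted p up to 0.20) and the 17 libraries above the score gap (0.07, adjusted p = 0.334).

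VEGFA showed no called change over time in normoxia (adjusted p = 0.101) or in hypoxia (adjusted p = 0.405). At 48 h of hypoxia it differed from 0 h by log2 0.06 (interval -0.06 to 0.17, adjusted p = 0.435), and at 48 h of normoxia by 0.04 (-0.08 to 0.15, adjusted p = 0.665). Its group means spanned 0.19 on the log2 scale, a range that ranked 416th of 453 genes, whose median range was 0.73. The highest group was hypoxia at 36 h and the lowest normoxia at 12 h. In the order of levels 1 neighbouring pair differed beyond its spread, hypoxia at 12 h over normoxia at 24 h, and these were the seventh and eighth of the 9 groups.

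BHLHE40, the repressor, gave the clearest separation. The 5 libraries at 0 h held 2401, 2207, 2588, 2491 and 2277 CPM. At 12 h the lowest, median and highest values were 2608, 2791 and 2901 CPM in hypoxia, and 2010.3, 2400.1 and 2486 CPM in normoxia. At 24 h they were 2601, 2869 and 3545 CPM in hypoxia, against 2095, 2377 and 2574 CPM in normoxia. At both times every hypoxic library lay above every normoxic one, which held for 13.9% of all tested genes in either direction at 12 h and for 7.28% at 24 h. At 36 h the values were 2277, 2912 and 3151 CPM in hypoxia, against 2098, 2368 and 2576 CPM in normoxia. Here 5 of 6 hypoxic libraries exceeded the normoxic maximum and replicate 4, at 2277 CPM, lay among the normoxic libraries, so the groups overlapped, as for all but 6.4% of genes. At 48 h they were 2589, 2985 and 3181 CPM in hypoxia, against 2152, 2186 and 2353 CPM in normoxia, again without overlap, as for 15.5% of genes. Replicate 4 was the shallowest library of hypoxia at 36 h, and among the libraries above the depth gap the groups did not overlap at 36 h either (2795 to 3151 CPM in hypoxia, 2318 to 2576 CPM in normoxia). In those libraries BHLHE40 was thus without overlap at all 4 times, as were 25.6%, 13.2%, 15% and 30.5% of tested genes at 12, 24, 36 and 48 h. That outcome was fixed by leaving out replicate 4 at 36 h, the only hypoxic library that had overlapped. The libraries of low total were chosen after seeing the data.

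**Figure D2:**
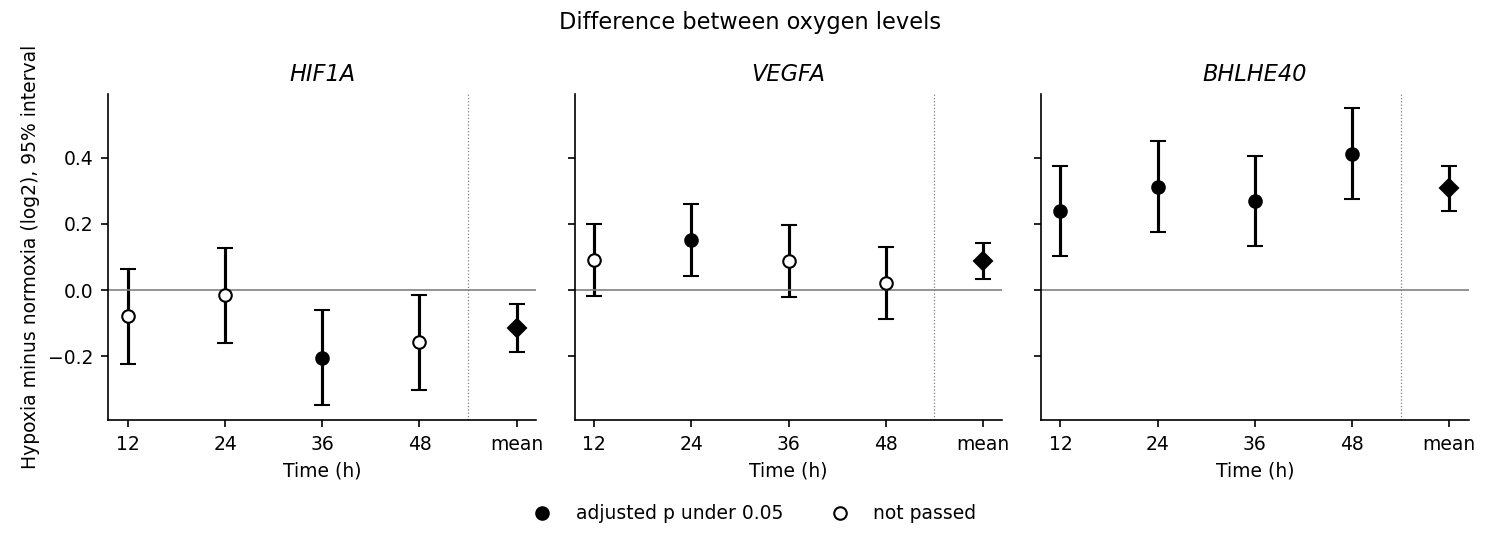
Hypoxia minus normoxia (log2, vertical axis) for each gene at 12, 24, 36 and 48 h and as the mean over these times (diamond), with 95% intervals; filled symbols passed an adjusted p of 0.05. All 5 BHLHE40 values lie between 0.24 and 0.41, VEGFA values between 0.02 and 0.15, and HIF1A values between -0.20 and -0.02.

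BHLHE40 rose in hypoxia by log2 0.24 at 12 h (SE 0.07, edgeR quasi-likelihood test, adjusted p = 0.0101), with 2776 ± 119.7 CPM in hypoxia and 2348 ± 175 CPM in normoxia (SD, n = 6 each). It rose by 0.31 at 24 h (SE 0.07, adjusted p = 0.000397) and by 0.27 at 36 h (SE 0.07, adjusted p = 0.00282). At 48 h it rose by 0.41 (SE 0.07, adjusted p = 4.51e-06), with 2963 ± 209.98 CPM in hypoxia and 2228 ± 90.4 CPM in normoxia. The mean over the times was 0.31 (SE 0.03, interval 0.24 to 0.38, adjusted p = 1e-10), which is 1.24-fold. By p-value it ranked 21st of 453 genes on average and by size of change 124th, since most called genes moved further (median size 0.39 on the log2 scale).

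The mean rise of BHLHE40 and the rise at 24 h passed under all 19 alternatives, with ranges of 0.27 to 0.34 and 0.26 to 0.38. The calls at 36 and 48 h were each lost under 2 of 19. The rise at 12 h was lost under 7 of 19, leaving out replicate 1 or 3 among them (adjusted p up to 0.0522), and with reference-gene scaling it was 0.12 (adjusted p = 0.309). Under that scaling the median of all genes at 12 h was -0.08, against 0.04 with TMM factors, a shift above 0.1. The BHLHE40 value stood 0.20 above the median in both. A change of scaling moves all genes nearly alike, so that distance cannot bear on the lost call. Leaving out the 17 libraries above the score gap leaves 2 normoxic libraries at 12 h and 1 at 48 h. Those at 12 h are replicates 4 and 5. Replicate 4 is among the 13 of low total (296563 counts), with the lowest BHLHE40 of its group (2010.3 CPM). The library at 48 h is replicate 6, among the 13 of low total (201593 counts), with the lowest BHLHE40 of its group (2152 CPM). Without the 17 libraries BHLHE40 was 0.31 higher in hypoxia at 12 h, 0.26 at 36 h and 0.46 at 48 h, and these calls were lost. The mean without them was 0.34, and it rests in part on replicate 4 at 12 h and replicate 6 at 48 h of normoxia. Without the 13 libraries of low total BHLHE40 rose at all 4 times, by 0.18, 0.28, 0.29 and 0.43.

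The difference of the hypoxia effect between times was not called for any of the 3 genes (adjusted p = 0.479 for HIF1A, 0.642 for VEGFA and 0.53 for BHLHE40, against 10.6% of all genes called). The larger value of BHLHE40 at 48 h and the value of VEGFA at 24 h are therefore not shown to differ from those at other times. Nor was a change of BHLHE40 over time called within normoxia (adjusted p = 0.614, against 59.8% of all genes called) or within hypoxia (adjusted p = 0.602, against 30.2%). The test in normoxia passed under 1 of 19 alternatives, the replicate block with reference scaling (adjusted p = 0.0411). In hypoxia at 12 h it already stood above 0 h of normoxia, with a rise of 0.21 (SE 0.07, adjusted p = 0.0189, against 27.2% called), a call that 7 of 19 alternatives ended, leaving out replicate 1, 2 or 5 among them (adjusted p up to 0.126). At 48 h of hypoxia the rise over 0 h was 0.31 (SE 0.07, adjusted p = 0.000287). In normoxia 48 h minus 0 h was -0.10 (interval -0.25 to 0.04, adjusted p = 0.261). Over the 24 combinations of the 3 genes and the 8 steps between neighbouring harvests, these 2 (BHLHE40 into hypoxia at 12 h, and HIF1A from 24 to 36 h of hypoxia) were called. The shares of all genes called in the remaining steps were 18.1%, 38.6%, 5.74% and 1.1% for the steps ending at 12, 24, 36 and 48 h of normoxia, and 10.2% and 3.97% for those ending at 24 and 48 h of hypoxia.

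In the order of BHLHE40 levels the 4 hypoxic groups came first, from 48 h down through 24, 36 and 12 h, and the 5 normoxic groups followed, from 0 h through 36, 24, 12 and 48 h. The one gap beyond the spread of its neighbours was that between hypoxia at 12 h and normoxia at 0 h, at 0.22 on the log2 scale against a larger SD of 0.09. Neighbours within the hypoxic set and within the normoxic set did not differ beyond their spread.

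All 3 genes belong to the upper part of the panel, where values moved little. Of the 453 genes 223 averaged above 2000 CPM, and the median range of their group means was 0.28 on the log2 scale, against 1.52 among the other 230. The median size of the mean hypoxia difference was 0.05 in the upper set and 0.29 in the lower, and 28.3% and 44.8% of genes were called. The members averaged 3954, 4440.3 and 2589 CPM for HIF1A, VEGFA and BHLHE40 over the 53 libraries. Among the 223 genes BHLHE40 ranked 17th, HIF1A 53rd and VEGFA 68th by the size of the mean difference, and MYH1E, a fast myosin heavy chain, ranked first with 1.10. Whether the level of an amplicon bears on the size of its measured change was not tested.

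Ratios of 2 members within a library need no scaling between libraries, and are given as a description. BHLHE40 over HIF1A counts had medians of 0.725, 0.699, 0.881 and 0.886 in hypoxia at 12, 24, 36 and 48 h, against 0.576, 0.610, 0.608 and 0.562 in normoxia. At 48 h the range was 0.629 to 0.941 in hypoxia and 0.474 to 0.607 in normoxia, so the groups did not overlap, while at 12, 24 and 36 h they did. The BHLHE40 over VEGFA ratio at 48 h ran from 0.619 to 0.672 in hypoxia and from 0.455 to 0.532 in normoxia, again without overlap. At the earlier times that ratio overlapped, at 0.616 to 0.679 in hypoxia and 0.511 to 0.621 in normoxia at 12 h, at 0.586 to 0.705 in hypoxia and 0.527 to 0.644 in normoxia at 24 h, and at 0.562 to 0.659 in hypoxia and 0.408 to 0.598 in normoxia at 36 h. Of the 24753 pairs among the 223 genes above 2000 CPM, 12.6% gave a ratio without overlap at 48 h. The VEGFA over HIF1A ratio had medians of 1.16, 1.11, 1.44 and 1.33 in hypoxia at the 4 times, against 1.00, 1.04, 1.11 and 1.13 in normoxia, and its groups overlapped at each time. Among the libraries above the depth gap they did not overlap at 12 h (1.11 to 1.22 in hypoxia, 1.00 to 1.04 in normoxia). The same held at 36 h (1.30 to 1.68 and 1.09 to 1.11) and 48 h (1.30 to 1.44 and 1.12 to 1.21), but not at 24 h. In those libraries BHLHE40 over HIF1A was without overlap at all 4 times, and BHLHE40 over VEGFA still overlapped at 12, 24 and 36 h. No share of gene pairs is given there, so these separations are not shown to be particular to the members. Where a ratio newly separated, the hypoxic libraries that had overlapped were of low total, so leaving them out fixed that outcome. Of single tested genes 25.6%, 13.2%, 15% and 30.5% were without overlap in those libraries at 12, 24, 36 and 48 h. HIF1A and BHLHE40 followed the library total at r of -0.75 and 0.50, and the part of depth in the ratios was not tested.

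**Figure D3:**
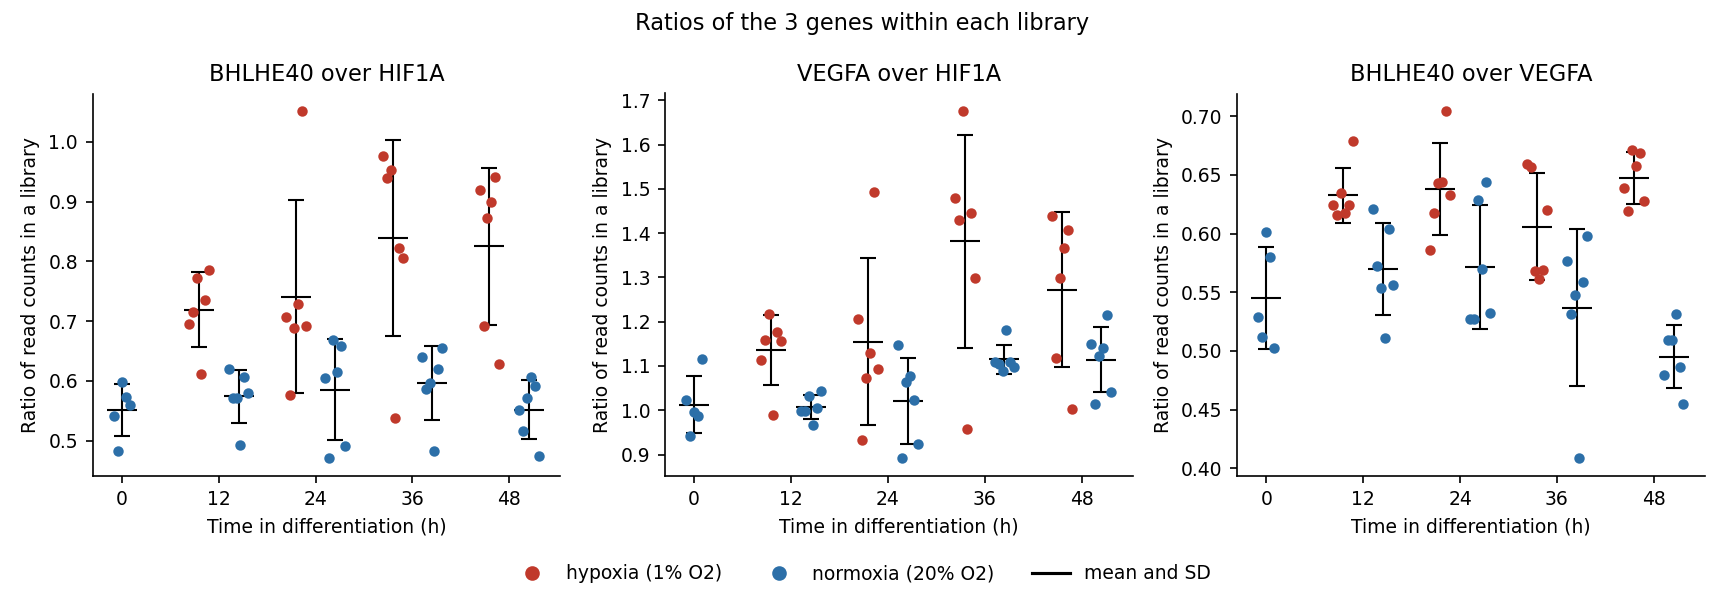
Ratio of read counts of 2 genes within each library (vertical axes, not starting at 0) against time in differentiation (h), hypoxia left of normoxia; bars are mean and SD over 6 libraries (5 at 0 h). At 48 h BHLHE40 over VEGFA lies between 0.619 and 0.672 in hypoxia and between 0.455 and 0.532 in normoxia.

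Within groups the 3 genes did not vary together as one set. Over the deviations of the 53 libraries from their group means, which share library scaling, Pearson's r was -0.06 for HIF1A and VEGFA, -0.49 for HIF1A and BHLHE40 and 0.45 for VEGFA and BHLHE40, with a median of -0.01 over all pairs of genes. Over the 40 libraries above the depth gap r was 0.19, -0.10 and 0.36 for the same pairs, so the negative value for HIF1A and BHLHE40 was close to 0 there. Hypoxia replicate 4 at 36 h, at 235311 counts the shallowest of its group, had the highest HIF1A of its group (4235 CPM) and its lowest VEGFA (4055 CPM) and BHLHE40 (2277 CPM). Hypoxia replicate 5 at 24 h, at 795748 counts, had the lowest HIF1A (3369.9 CPM), the highest BHLHE40 (3545 CPM) and the second highest VEGFA (5031 CPM). These libraries were singled out after their values were seen. Between technical replicates the SD on the log2 scale was 0.11 for HIF1A, 0.08 for VEGFA and 0.10 for BHLHE40. Those values are from single replicates without TMM factors. Between libraries the SD was 0.12 for HIF1A, 0.09 for VEGFA and 0.12 for BHLHE40, from TMM-scaled sums of 2 replicates. The 2 kinds of SD are thus not on one scale, and the technical part of the spread between libraries was not estimated. Within groups r with the 6-gene score was -0.07, -0.29 and -0.32 for HIF1A, VEGFA and BHLHE40; the part of that score in the results was not tested beyond leaving out the 17 libraries.

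The genes whose 9 group means ran most like those of each member were found by Pearson's r over all other tested genes. For BHLHE40 they were the growth factor BMP4 (r = 0.94), the extracellular matrix gene COCH (0.94), the glucose transporter family gene SLC2A14 (0.90) and the FGF receptor-like FGFRL1 (0.90). Within groups, over 53 libraries, r was 0.62 for BMP4 and 0.64 for SLC2A14 but -0.46 for COCH and -0.04 for FGFRL1. The likeness of COCH thus holds between groups and not between libraries of a group. Their mean hypoxia differences were 0.26 for BMP4, 2.69 for COCH, 0.21 for SLC2A14 and 0.31 for FGFRL1, each called, against 36.6% of all genes. Picking genes by group means favours such differences, so these calls are no separate support.

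For HIF1A the most alike were the autophagy gene MAP1LC3A (r = 0.96 between groups, 0.79 within), the transcription factor STAT3 (0.95 and 0.34), the smooth muscle actin-binding gene TAGLN (0.92 and 0.32) and the tolloid-like protease TLL1 (0.89 and 0.73). All 4 were lower in hypoxia on average, by log2 -0.10, -0.19, -0.25 and -0.86, each called. For VEGFA they were the calcium buffer PVALB (0.91 and -0.18), the sterol regulator INSIG1 (0.90 and 0.52), the MHC class I gene BF2 (0.88 and -0.36) and the transcription factor KLF9 (0.82 and 0.11). Their mean hypoxia differences were 1.33, 0.09, 0.23 and 0.69, each called. Over 9 groups that share scaling these values are descriptions, and 21, 7 and 15 other genes exceeded r of 0.8 for HIF1A, VEGFA and BHLHE40. Hypoxia differences in a member's direction were largely built in by picking genes on group means, and 36.6% of all genes were called. The r within groups include the 13 libraries of low total, and HIF1A and BHLHE40 followed the library total at -0.75 and 0.50. The part of depth in them was not tested.

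Other hypoxia-responsive genes on the panel place the members. Counts of called genes in the lists below stand beside shares of 17.9%, 18.5%, 16.3% and 22.3% of all tested genes at 12, 24, 36 and 48 h. For the mean the share was 36.6%, and no list was tested against these shares. Of 7 tested glucose-handling targets of hypoxia-inducible factor, 2 rose at 12 h, 2 at 24 h, 1 at 36 h and 1 at 48 h, and none fell (list medians 0.19, 0.20, 0.08 and 0.14, all genes 0.04, 0.01, 0.00 and 0.01). HK2, hexokinase of the first glycolytic step, rose at every time, by 0.81, 1.27, 1.24 and 2.34 on the log2 scale. Its mean rise of 1.41 (SE 0.13, adjusted p = 4.68e-13) stood beside 0.31 for BHLHE40. ENO1, an enolase, rose at 12 h (1.34, SE 0.29, adjusted p = 0.000752), and PFKFB3, which makes the activator of phosphofructokinase, rose at 24 h (0.20, adjusted p = 0.0459). The HK2 call at 12 h was lost under 10 of 19 alternatives and that of PFKFB3 under 16. Over the 4 times together 4 of the 7 rose, with SLC2A1, a glucose transporter, added at 0.15 (SE 0.05, adjusted p = 0.0216), a call lost under 11 of 19 alternatives (adjusted p up to 0.722). The pyruvate dehydrogenase kinase PDK1, a classical target, had a mean of 0.01 (interval -0.06 to 0.09, adjusted p = 0.783).

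Among genes that act on vessels as VEGFA does, the vasoconstrictor EDN2 rose at 24 h (1.58, SE 0.34, adjusted p = 0.000403) and 48 h (1.67, SE 0.35, adjusted p = 0.000196), while EDN1 and the peptide APLN did not pass at any time; 1 of 3 tested genes was called at each of those times and 0 at 12 and 36 h by edgeR and by DESeq2, with 1 at 12 h (APLN) at an unadjusted p under 0.05 (list medians -0.31, 0.78, 0.11 and 0.37). EDN2 stood at 166 ± 70.3 CPM in hypoxia and 55.6 ± 22.3 CPM in normoxia at 24 h. Of 3 tested endothelial markers VWF rose at 24 and 48 h and ENG at 48 h, calls lost under 5, 2 and 6 of 19 alternatives. Their level summed with CDH5 and PECAM1 ran from 185 to 636 CPM in hypoxia and 139 to 405 CPM in normoxia at 24 h, and from 214 to 569.6 CPM in hypoxia and 95.4 to 245 CPM in normoxia at 48 h. PECAM1 was at 0 in 16 of 53 libraries. Their part in the VEGFA and EDN2 values was not tested. Other ligands of the family and the VEGF receptors were not analysed here.

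Of 6 other tested targets, the growth factor IGF2 fell at every time (by 1.23, 1.79, 1.36 and 1.01 on the log2 scale) and MMP9, a matrix metalloproteinase, rose at 24, 36 and 48 h (0.94, 1.23 and 1.66). The IGF carrier IGFBP2 rose at 24 h (0.62) and 48 h (0.46), and the cell cycle inhibitor CDKN1A fell at 12 h (by 0.52, adjusted p = 0.00504). The MMP9 calls at 24, 36 and 48 h were lost under 5, 1 and 2 of 19 alternatives. Those of IGFBP2 at 24 and 48 h were lost under 1 and 5, and that of CDKN1A at 12 h under 3. The IGF2 calls were lost under 1, 0, 1 and 2 at 12, 24, 36 and 48 h. The mitophagy gene BNIP3, a classical target in mammals, had a mean of 0.07 (interval -0.03 to 0.16, adjusted p = 0.31), and MMP2 one of 0.03 (-0.04 to 0.11, adjusted p = 0.537). List medians were 0.03, -0.01, 0.04 and 0.02 at the 4 times. The list therefore held genes called in both directions and others near 0.

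**Figure D4:**
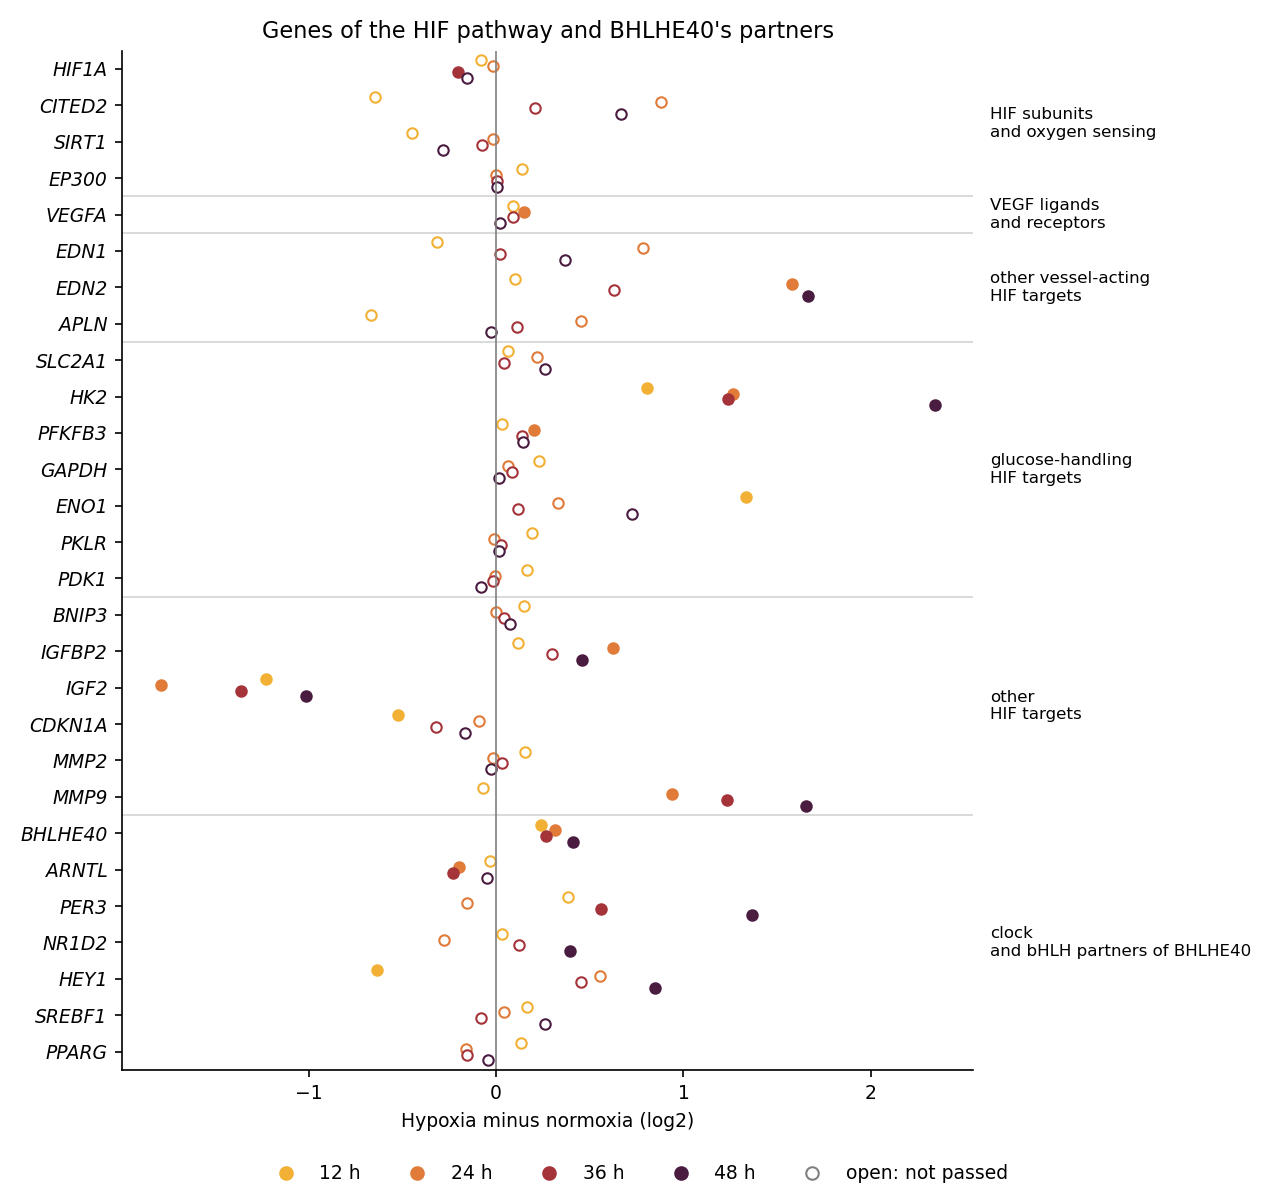
Hypoxia minus normoxia (log2, horizontal axis) of the tested genes of 6 lists at 12, 24, 36 and 48 h (colours); filled symbols passed an adjusted p of 0.05. HK2 reaches 2.34 and IGF2 -1.79, while BHLHE40 lies between 0.24 and 0.41 with all 4 symbols filled.

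BHLHE40 protein acts in the circadian loop, in which it opposes transcription driven by ARNTL (BMAL1) and its partner CLOCK in mammals. Of 7 tested clock and basic helix-loop-helix genes, BHLHE40 included, 1 rose and 1 fell at 12 h, and 1 rose and 1 fell at 24 h. At 36 h 2 rose and 1 fell, and at 48 h 4 rose, BHLHE40 among them. List medians were 0.13, -0.15, 0.12 and 0.39, against 0.04, 0.01, 0.00 and 0.01 for all genes. Of all tested genes 17.9%, 18.5%, 16.3% and 22.3% were called at these times. ARNTL averaged 2835 ± 155 CPM in hypoxia and 3261 ± 262 CPM in normoxia at 24 h, and fell by 0.20 (SE 0.06, adjusted p = 0.0231). It fell by 0.23 at 36 h (SE 0.06, adjusted p = 0.00661). These calls were lost under 10 and 7 of 19 alternatives, and at 12 and 48 h ARNTL did not pass.

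PER3, a period gene of the same loop, rose by 0.56 at 36 h (SE 0.17, adjusted p = 0.0162) and by 1.37 at 48 h (SE 0.17, adjusted p = 9.68e-09). At 48 h it averaged 2844 ± 632 CPM in hypoxia and 1108 ± 138 CPM in normoxia. The PER3 calls at 36 and 48 h were lost under 6 and 1 of 19 alternatives. NR1D2, a nuclear receptor that represses ARNTL in mammals, rose at 48 h (0.39, SE 0.14, adjusted p = 0.0319), a call lost under 12 of 19 alternatives. HEY1, a Notch-induced repressor, fell at 12 h (by 0.64, adjusted p = 0.0255, lost under 9 of 19) and rose at 48 h (0.85, adjusted p = 0.00124, lost under 3 of 19). The lipid regulators SREBF1 and PPARG did not pass on average (0.10, adjusted p = 0.348, and -0.06, adjusted p = 0.263).

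Marker lists and reference genes moved as follows beside these results, with 17.9%, 18.5%, 16.3% and 22.3% of all tested genes called at 12, 24, 36 and 48 h. Of 9 myogenic markers 2 fell at 12 h (ITGA7 and MEF2C), 2 rose at 24 h (PAX3 and MYF6), and PAX3 alone rose at 36 and 48 h. The calls of ITGA7 and MEF2C at 12 h were lost under 4 and 10 of 19 alternatives, that of MYF6 at 24 h under 9 and that of PAX3 at 36 h under 6. Of 7 fibroblast and fat cell markers DPT fell at each time, by 0.60 to 1.15. For the mean over the times 36.6% of all genes were called. There 2 myogenic markers rose (PAX3 and MYF5) and 2 fell (ITGA7 and MEF2C, calls lost under 11 and 12 of 19 alternatives). Of the fibroblast and fat cell markers COL3A1 rose on average, a call lost under 7 of 19, and DPT fell. CD14, the one immune marker tested, did not pass at any time. Of 5 tested reference genes (ACTB, HPRT1, TBP, YWHAZ and PPIA) 0 were called at any time or on average, with list medians of 0.13, -0.04, -0.03 and 0.03 at 12, 24, 36 and 48 h. The count of 0 is by edgeR and also by DESeq2, and at an unadjusted p under 0.05 it was 1 at 12 h (HPRT1) and 0 at the other times.

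**Figure D5:**
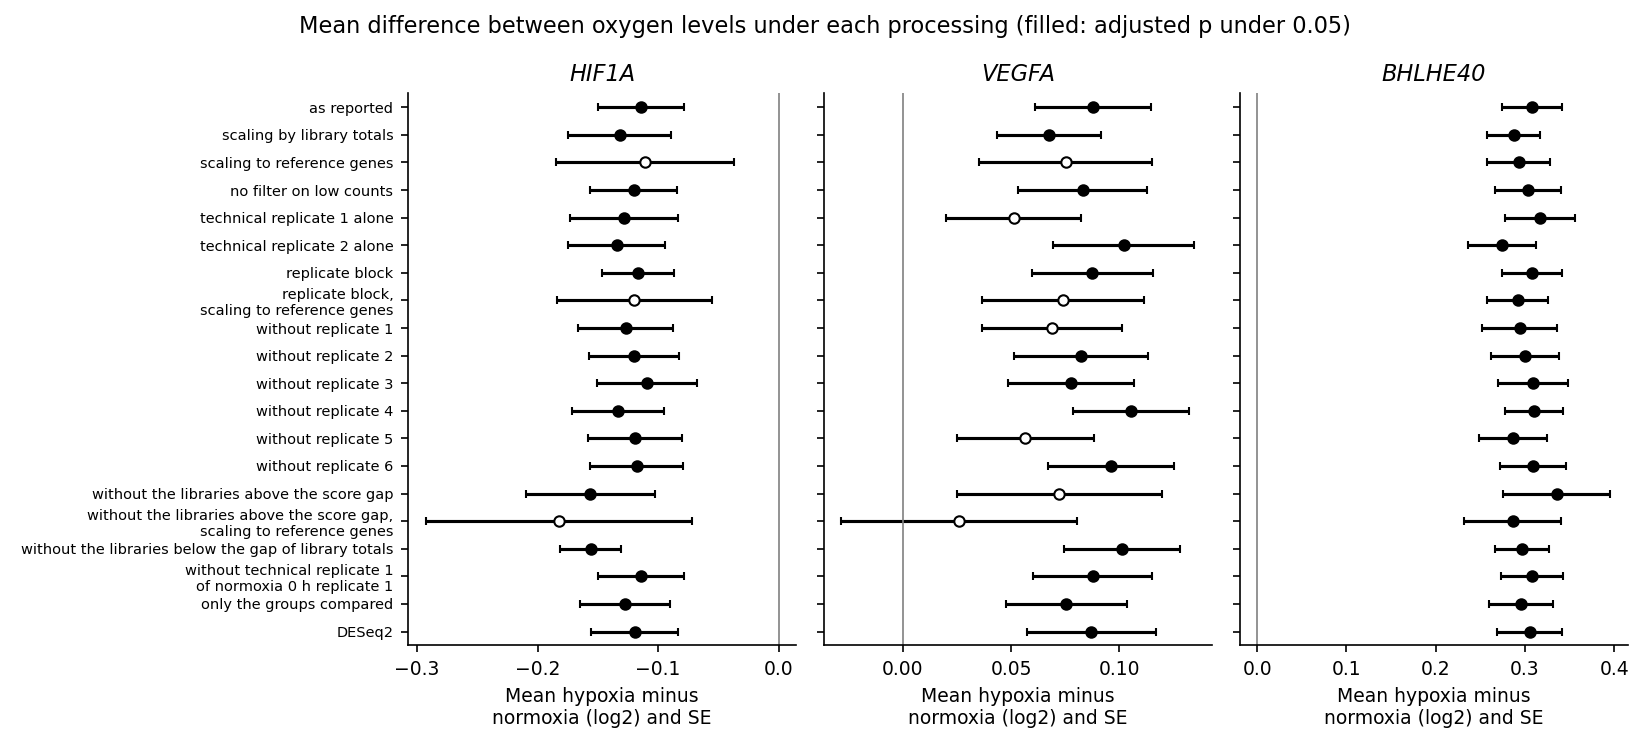
Mean hypoxia minus normoxia over 12 to 48 h (log2, horizontal axes of different spans, with SE) for each gene as reported and under 19 alternatives; filled points passed an adjusted p of 0.05. BHLHE40 stays between 0.27 and 0.34 and filled, HIF1A lies between -0.18 and -0.11 with 3 open points, and VEGFA between 0.03 and 0.11 with 7 open points.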

How the data were processed

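The authors deposited 1 table of raw read counts for 590 transcripts in 106 columns, which are 53 libraries in 2 technical replicates each; value columns matching no sample numbered 0. Per the labels' protocols, total RNA was reverse transcribed and amplified with primers on chicken RefSeq transcripts that span exon boundaries. Per the submitters' processing notes the genome build was galGal6, while no aligner or counting tool is named in the sources used here. Blank cells (1160, none in these 3 genes) were read as 0, and transcripts and technical replicates were summed, which gave 569 genes. All 3 symbols matched a RefSeq gene table (GRCg7b) used for names alone.

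In R 4.3.3 with edgeR 4.0.16, 453 genes passed filterByExpr, TMM factors were applied, and 1 quasi-likelihood fit over all 9 groups (44 residual degrees of freedom) gave the tests, with Benjamini-Hochberg adjustment over 453 genes and 95% intervals from the same fit. The procedure was tested on simulated counts, with changes put into hypoxia at 24 h alone and no trend with the library total. That test therefore does not cover the trends of HIF1A and BHLHE40 with the library total. DESeq2 1.42.0, other scalings, filters, replicate settings and technical replicates were alternatives, 5 of them chosen after seeing the data. Reads carry no stated molecular identifiers, so counting error understates the error. Named genes are the 3 members, the 4 genes most alike to each by group means, and called members of each list, at most 4 per list and comparison; markers near 0, uncalled list genes, MYH1E and single libraries were picked with their values already known. The members, the lists and the 6 score genes were chosen with earlier results of these data known.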

Additional observations from a re-analysis of the deposited data

Results flagged for a closer look

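Of 27 sets of libraries (3 genes in 9 groups) 1 held a library that stood apart by Dixon's ratio, which chance gives in about 1 of 20. It was BHLHE40 in normoxia at 12 h, where replicate 4 held 2010.3 CPM and the nearest other library 2346 CPM. That library was the shallowest of its group, at 296563 counts, and whether depth bears on its value was not tested. Without replicate 4 of every group the rise of BHLHE40 at 12 h was 0.22 on the log2 scale (adjusted p = 0.0205), against 0.24 with it.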

How the results depend on the processing

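Under 19 alternatives the mean rise of BHLHE40 over 12 to 48 h, its rise at 24 h and its rise at 48 h of hypoxia over 0 h passed in all 19. The other calls of the 3 genes were lost in some, and their values follow on the log2 scale with the values that turned sign or newly passed. The cause was not tested. Of 71 values that turned sign, leaving out replicates aside, 57 are differences between harvests and 14 are hypoxia minus normoxia, and none belongs to a difference that passed as reported. Of 418 step values in alternatives 4 newly passed: HIF1A at hypoxia 12 h minus normoxia 0 h under the replicate block (-0.18, adjusted p = 0.0227), without the 13 libraries of low total (-0.19, adjusted p = 0.00329) and with only the groups compared (-0.19, adjusted p = 0.00993), and BHLHE40 at normoxia 24 h minus 12 h (-0.18, adjusted p = 0.0407) with the block and reference scaling. Counts of called genes were 81, 84, 74 and 101 at 12, 24, 36 and 48 h and 166 for the mean in the fit as reported.

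With scaling by library totals, BHLHE40 gave 0.020 for normoxia 12 h minus 0 h, -0.0095 for normoxia 24 h minus 12 h and -0.014 for normoxia 36 h minus 24 h. HIF1A gave -0.20 at 36 h, -0.22 for hypoxia 36 h minus 24 h and 0.148 (adjusted p) for any change over time in hypoxia. VEGFA gave 0.13 at 24 h, -0.0036 at 48 h, -0.014 for normoxia 24 h minus 12 h and 0.0064 for hypoxia 12 h minus normoxia 0 h. With scaling to reference genes, BHLHE40 gave 0.12 at 12 h, 0.072 for normoxia 12 h minus 0 h, -0.18 for normoxia 24 h minus 12 h and -0.014 for normoxia 36 h minus 24 h. BHLHE40 gave 0.015 for normoxia 48 h minus 36 h and 0.19 for hypoxia 12 h minus normoxia 0 h. HIF1A gave 0.056 at 24 h, -0.14 at 36 h, -0.11 for the mean and -0.26 for hypoxia 48 h minus normoxia 0 h. HIF1A gave 0.0099 for normoxia 12 h minus 0 h, -0.26 for hypoxia 36 h minus 24 h and 0.578 (adjusted p) for any change over time in hypoxia. VEGFA gave -0.030 at 12 h, 0.20 at 24 h, 0.075 for the mean and 0.0061 for normoxia 12 h minus 0 h. VEGFA gave -0.19 for normoxia 24 h minus 12 h, -0.0094 for hypoxia 36 h minus 24 h and 0.026 for hypoxia 48 h minus 36 h. Called genes numbered 40 at 12 h, 54 at 24 h and 48 at 36 h. With no filter on low counts, BHLHE40 gave 0.0072 for normoxia 12 h minus 0 h and -0.020 for normoxia 36 h minus 24 h. HIF1A gave -0.19 at 36 h. VEGFA gave 0.16 at 24 h, -0.0037 at 48 h and 0.0079 for hypoxia 12 h minus normoxia 0 h. From technical replicate 1 alone, BHLHE40 gave 0.19 at 12 h, 0.035 for normoxia 12 h minus 0 h and 0.015 for hypoxia 36 h minus 24 h. HIF1A gave -0.24 at 36 h, 0.020 for normoxia 24 h minus 12 h, -0.026 for normoxia 48 h minus 36 h and -0.26 for hypoxia 36 h minus 24 h. HIF1A gave 0.0919 (adjusted p) for any change over time in hypoxia. VEGFA gave 0.11 at 24 h, -0.033 at 48 h and 0.051 for the mean. Called genes numbered 47 at 12 h and 55 at 24 h. From technical replicate 2 alone, BHLHE40 gave -0.042 for normoxia 36 h minus 24 h. HIF1A gave -0.18 at 36 h, -0.24 at 48 h, -0.00022 for hypoxia 24 h minus 12 h and -0.18 for hypoxia 36 h minus 24 h. HIF1A gave 0.168 (adjusted p) for any change over time in hypoxia. VEGFA gave 0.16 at 24 h and 0.045 for hypoxia 12 h minus normoxia 0 h. Called genes numbered 49 at 24 h and 39 at 36 h. With the replicate block, BHLHE40 gave -0.0010 for normoxia 36 h minus 24 h. HIF1A gave -0.16 at 48 h and -0.18 for hypoxia 12 h minus normoxia 0 h. VEGFA gave 0.15 at 24 h. With the replicate block and reference scaling together, BHLHE40 gave 0.12 at 12 h, 0.066 for normoxia 12 h minus 0 h, -0.18 for normoxia 24 h minus 12 h and -0.015 for normoxia 36 h minus 24 h. BHLHE40 gave 0.016 for normoxia 48 h minus 36 h, 0.19 for hypoxia 12 h minus normoxia 0 h and 0.0411 (adjusted p) for any change over time in normoxia. HIF1A gave 0.045 at 24 h, -0.16 at 36 h, -0.12 for the mean and -0.30 for hypoxia 48 h minus normoxia 0 h. HIF1A gave -0.25 for hypoxia 36 h minus 24 h and 0.415 (adjusted p) for any change over time in hypoxia. VEGFA gave -0.030 at 12 h, 0.20 at 24 h, 0.074 for the mean and -0.19 for normoxia 24 h minus 12 h. VEGFA gave -0.0082 for hypoxia 36 h minus 24 h and 0.026 for hypoxia 48 h minus 36 h. Called genes numbered 50 at 24 h. Without the 17 libraries above the score gap, BHLHE40 gave 0.31 at 12 h, 0.26 at 36 h, 0.46 at 48 h and -0.034 for normoxia 36 h minus 24 h. BHLHE40 gave 0.22 for hypoxia 12 h minus normoxia 0 h. HIF1A gave 0.019 at 24 h, -0.19 at 36 h, 0.12 for normoxia 48 h minus 0 h and 0.015 for normoxia 24 h minus 12 h. HIF1A gave -0.22 for hypoxia 36 h minus 24 h and 0.127 (adjusted p) for any change over time in hypoxia. VEGFA gave 0.15 at 24 h, -0.065 at 48 h, 0.072 for the mean and 0.015 for hypoxia 12 h minus normoxia 0 h. Called genes numbered 24 at 12 h, 22 at 48 h and 103 for the mean. Without them and with reference scaling, BHLHE40 gave 0.13 at 12 h, 0.35 at 48 h, 0.11 for normoxia 12 h minus 0 h and -0.17 for normoxia 24 h minus 12 h. BHLHE40 gave 0.047 for normoxia 48 h minus 36 h and 0.24 for hypoxia 12 h minus normoxia 0 h. HIF1A gave 0.12 at 24 h, -0.12 at 36 h, -0.18 for the mean and 0.21 for normoxia 48 h minus 0 h. HIF1A gave -0.26 for hypoxia 48 h minus normoxia 0 h, 0.12 for normoxia 12 h minus 0 h, 0.023 for normoxia 36 h minus 24 h and -0.22 for hypoxia 36 h minus 24 h. HIF1A gave 0.768 (adjusted p) for any change over time in hypoxia. VEGFA gave -0.056 at 12 h, 0.22 at 24 h, -0.17 at 48 h and 0.026 for the mean. VEGFA gave 0.085 for normoxia 12 h minus 0 h, -0.23 for normoxia 24 h minus 12 h and 0.029 for hypoxia 12 h minus normoxia 0 h. Called genes numbered 18 at 12 h, 51 at 24 h, 35 at 36 h, 7 at 48 h and 67 for the mean. Without the 13 libraries of low total, BHLHE40 gave 0.0057 for normoxia 12 h minus 0 h and -0.020 for normoxia 36 h minus 24 h. HIF1A gave -0.14 at 12 h, -0.22 at 48 h, -0.14 for normoxia 48 h minus 0 h and 0.021 for normoxia 36 h minus 24 h. HIF1A gave -0.013 for normoxia 48 h minus 36 h, -0.19 for hypoxia 12 h minus normoxia 0 h and 0.0389 (adjusted p) for any change over time in normoxia. VEGFA gave 0.15 at 24 h, 0.17 at 36 h and -0.017 for normoxia 24 h minus 12 h. Called genes numbered 116 at 36 h. Without technical replicate 1 of normoxia 0 h replicate 1, HIF1A gave 0.0529 (adjusted p) for any change over time in hypoxia. VEGFA gave 0.15 at 24 h. With only the groups compared in the fit, BHLHE40 gave 0.27 at 36 h, 0.0027 for normoxia 12 h minus 0 h and -0.020 for normoxia 36 h minus 24 h. HIF1A gave -0.20 at 36 h, 0.015 for normoxia 24 h minus 12 h, -0.19 for hypoxia 12 h minus normoxia 0 h and -0.25 for hypoxia 36 h minus 24 h. HIF1A gave 0.183 (adjusted p) for any change over time in hypoxia. VEGFA gave 0.14 at 24 h and -0.0074 at 48 h. Called genes numbered 131 at 12 h, 42 at 24 h and 33 at 36 h. With DESeq2, BHLHE40 gave 0.0038 for normoxia 12 h minus 0 h, -0.0033 for normoxia 24 h minus 12 h and -0.0049 for normoxia 36 h minus 24 h. HIF1A gave 0.0033 at 24 h. VEGFA gave -0.0088 for normoxia 24 h minus 12 h.

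Leaving out each replicate number in turn, BHLHE40 ran from 0.22 to 0.25 at 12 h, -0.055 to 0.038 for normoxia 36 h minus 24 h and 0.18 to 0.25 for hypoxia 12 h minus normoxia 0 h. BHLHE40 ran from -0.051 to 0.028 for normoxia 12 h minus 0 h, -0.030 to 0.065 for normoxia 24 h minus 12 h and -0.10 to 0.022 for hypoxia 36 h minus 24 h. BHLHE40 ran from -0.027 to 0.087 for hypoxia 48 h minus 36 h. HIF1A ran from -0.24 to -0.17 at 36 h, -0.29 to -0.18 for hypoxia 36 h minus 24 h and 0.0161 to 0.231 (adjusted p) for any change over time in hypoxia. HIF1A ran from -0.041 to 0.0086 at 24 h, -0.076 to 0.018 for normoxia 36 h minus 24 h and -0.054 to 0.024 for normoxia 24 h minus 12 h. HIF1A ran from -0.019 to 0.057 for normoxia 48 h minus 36 h. VEGFA ran from 0.10 to 0.18 at 24 h, -0.0078 to 0.063 at 48 h and 0.056 to 0.11 for the mean. VEGFA ran from -0.027 to 0.052 for normoxia 24 h minus 12 h, -0.029 to 0.0091 for hypoxia 12 h minus normoxia 0 h and -0.026 to 0.065 for hypoxia 36 h minus 24 h. VEGFA ran from -0.10 to 0.0040 for hypoxia 48 h minus 36 h, 0.053 to 0.17 at 36 h and -0.0050 to 0.064 for normoxia 48 h minus 36 h. Called genes ran from 44 to 86 at 12 h.

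Replicate numbers were not taken to pair the libraries, since no label says so and of 24 pairs of hypoxic and normoxic libraries with the same number 12 correlated above 0.1, the lowest at -0.32, and 7 correlated best with their own number. Library totals did follow the number, with r of 0.97 to 1.00 between oxygen levels over 6 pairs at each time, a hint from the data and not from the design. By number, HIF1A was lower in hypoxia in 5, 3, 6 and 5 of 6 pairs at 12, 24, 36 and 48 h. VEGFA was higher in 5, 5, 5 and 4 of 6, and BHLHE40 in 6 of 6 at each time. At 12, 24 and 48 h the 6 of 6 follows from the lack of overlap of BHLHE40. No share of all genes is given for such counts. The replicate block ended the call of VEGFA at 24 h (0.15, adjusted p = 0.0546) and gave a call to HIF1A at 48 h (-0.16, adjusted p = 0.041). That block fits 1 effect per number over all 9 groups, while the numbers of low total differed between times. It therefore does not represent pairing within a time, and a block within each time was not among the alternatives. The 17 libraries, the 13 of low total, the 2 combined settings and the technical replicate left out were chosen after seeing the data. Without the 17, normoxia at 48 h keeps 1 library, replicate 6 of low total, assumed to vary like the other groups. Values without the 17 that use normoxia at 48 h rest on that library, the 0.12 of HIF1A for normoxia 48 h minus 0 h among them. Normoxia at 12 h keeps replicates 4 and 5, of which replicate 4 is of low total. Testing transcripts one by one gave no other value, since each gene has 1 transcript. At the lowest count of 352, counting alone gives a CV of 5.33%.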
